A study of Mus musculus with 4 samples.

Results

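The genes described here are 9 transcription factor genes that mark or direct lymphocyte fate, Tcf7, Lef1, Tbx21, Eomes, Gata3, Foxp3, Zfp683, Tox and Ikzf2, out of 30406 genes listed in all 4 libraries of the series. They were taken as a list of names with no threshold on measured values, although the list was drawn up with earlier results of these data known, and were left out of the clustering of cells. Single cells of the mouse submandibular salivary gland were captured with 10x Genomics droplets, which count unique molecular identifiers (UMIs), that is single RNA molecules, per gene and cell. The ligated group is 1 library from a female C57BL6/J mouse gland taken 14 days after duct ligation, in which a metal clip closed the excretory ducts. The mock group is 3 libraries (mock 1, 2 and 3) from glands of the same strain and sex after an operation in which the ducts were located and left without a clip. All 4 were depleted of EpCAM+ epithelial cells, Ter119+ red blood cells and dead cells, and the labels say neither how many mice went into a library nor whether the mock libraries came from separate mice.

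T cells, natural killer (NK) cells and innate lymphoid cells (ILCs) arise from common progenitors, and a small set of transcription factors fixes and later adjusts their identity. TCF-1 (Tcf7) and LEF-1 (Lef1) are high-mobility-group factors of naive, memory and progenitor lymphocytes. T-bet (Tbx21) and Eomesodermin (Eomes) are T-box factors of the type 1 programme, of which Eomes is the classical mark of conventional NK cells against ILC1s. GATA-3 (Gata3) directs type 2 helper T cells and ILC2s, FOXP3 (Foxp3) regulatory T cells, and Hobit (Zfp683) residency in tissues. TOX (Tox) is needed for the development of NK cells and ILCs and is known for its rise in chronically stimulated CD8+ T cells. Helios (Ikzf2) is an Ikaros-family factor of regulatory T cells and of other unconventional T cells.

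Levels are given as CPM, the UMIs of a gene per 1000000 UMIs of all cells of a class in 1 library. The deposited libraries held 4798 to 13790 barcodes and 29897488 to 80187555 UMIs, with medians of 3507.5 to 5413.5 UMIs per barcode, and pairs of libraries shared 11 to 61 barcode sequences, at most 0.634% of the smaller library. After filters and removal of likely doublets, 4421 to 11888 cells per library remained. Per the file headers, the ligated library and mock 1 were counted with Cell Ranger 6.0.1 and mock 2 and mock 3 with 7.0.0. Mock 2 and mock 3 were also unusually alike: the chi-square per degree of freedom of their summed counts was 1.62 to 2.24 over the 4 lymphocyte classes, while all other pairs had 4.08 to 61.8. Macrophage and fibroblast marker genes were higher in the ligated library in all 4 classes. The macrophage or monocyte list summed to 111 to 128 CPM in the ligated library and to 4.45 to 28.1 CPM in mock libraries, and the fibroblast list to 135 to 160.0 CPM in the ligated library and to 4.33 to 26.4 CPM in mock libraries. Their part in the results below was not tested.

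Lymphocytes were separated by markers other than the 9 genes. T-like cells, with Cd3e and T cell receptor genes, numbered 1093 in the ligated library, against 120, 217 and 294 cells in mock 1, 2 and 3. NK-like cells numbered 348 in the ligated library, against 178, 271 and 361 cells in mock 1, 2 and 3. A pooled group of innate cells with NK receptor genes, called Itgae/Tmem176b cells here, was the largest class, with 2617 in the ligated library, against 419, 621 and 953 cells in mock 1, 2 and 3, and ILC2-like cells the smallest, with 78 in the ligated library, against 38, 72 and 100 cells in mock 1, 2 and 3. T-like cells comprised 4 clusters named here by a leading gene. These were the Trgv2 cluster, with Cd8a, the alpha receptor gene Trac and gamma receptor genes also in the lead, the Cd8b1 cluster, led by both CD8 chains, the Cd40lg cluster, with Cd4 among its leading genes, and the Cd163l1 cluster, led by a scavenger receptor gene. Itgae/Tmem176b cells comprised a large subset with Itgae, the CD103 integrin chain, and a small one with Tmem176b, which had ILC1 marker genes (Tmem176a, Tmem176b and Il7r) among its leading genes. In the Itgae subset 12 of 16 NK markers were lower and 3 higher than in NK-like cells in all 4 libraries, and of 15 ILC1 markers 9 were higher and 3 lower. Each of its 4 clusters nevertheless scored higher for the NK list than for the ILC1 list. As mean standardised levels the scores were 0.04 and -0.03, 0.12 and -0.18, 0.21 and 0.11, and 0.17 and -0.03, beside 0.89 and -0.89 in NK-like cells, and the NK receptor genes Klra8 and Klra9 were among the leading genes of 1 cluster. The pooled group is therefore given no cell type name, and the members' order between libraries was also read in each of its 4 Itgae clusters. There the ligated library lay below all mock libraries in 2 of 4 clusters for Tcf7, Tbx21 and Tox each and in 1 of 4 for Eomes, Gata3 and Zfp683 each. It lay above them in 2 of 4 for Ikzf2 and in 1 of 4 for Foxp3, there from 0.414 CPM in the ligated library and 0 in each mock library, and overlapped them in all 4 for Lef1. The Cd8b1 cluster held 472 of the 1093 ligated T-like cells, but 29, 43 and 59 cells in mock 1, 2 and 3, so values within clusters are given beside those of the pooled T-like cells. Clusters were not uniform between libraries either. At a finer clustering part of the Cd40lg cells fell with a cluster led by Cd8b1 and by Dapl1 and Ccr7, genes of naive T cells. These were 33 of 150 cells (22.0%) in the ligated library. In mock 1, 2 and 3 they were 9 of 32, 10 of 68 and 11 of 72 cells (28.1, 14.7 and 15.3%), so the groups overlapped. In the Cd163l1 cluster the ligated library was lower for Cd163l1 itself, at 184 CPM in the ligated library and at 617, 1402 and 1726 CPM in mock 1, 2 and 3, and for the delta receptor gene Trdc, at 432 CPM in the ligated library and at 2168, 1709 and 1459.8 CPM in mock 1, 2 and 3. The Cd8b1 cluster differed in Trgv2, at 209.7 CPM in the ligated library and 49.9 to 66.6 CPM in mock libraries, and the Trgv2 cluster in Cd8b1, at 182 CPM in the ligated library and 24.9 to 117 CPM in mock libraries. Trgv2 does not set its cluster apart from the others, since the Cd163l1 cluster held it at 218 CPM in the ligated library and at 75.3, 179 and 199.7 CPM in mock 1, 2 and 3, beside 160.3 CPM in the ligated library and 148 to 185 CPM in mock libraries in the Trgv2 cluster. The part of these differences in the members' levels was not tested.

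The members lie on GRCm38, the build of the deposited files (mm10), as annotated in GENCODE M21, and they differ widely in intron length. Tox (chromosome 4, 6686353 to 6991557, minus strand) has 297.6 kb of introns, Ikzf2 (chromosome 1, 69531214 to 69687245, minus strand) 144.4 kb and Lef1 (chromosome 3, 131110471 to 131224356, plus strand) 105.1 kb. Gata3 (chromosome 2, 9857078 to 9890034, minus strand) has 29.0 kb, Tcf7 (chromosome 11, 52252371 to 52283014, minus strand) 28.0 kb, Foxp3 (chromosome X, 7573644 to 7595245, plus strand) 17 kb and Tbx21 (chromosome 11, 97098071 to 97115331, minus strand) 14.8 kb. Eomes (chromosome 9, 118478212 to 118486132, plus strand) and Zfp683 (chromosome 4, 134053838 to 134058996, plus strand) are compact, with 3.8 and 3.7 kb. Annotated genes overlap 7 of the 9 on one strand or the other (all but Tbx21 and Zfp683), among them Ccdc22 and Ppp1r3f across from Foxp3. The sources used here do not say whether reads were assigned by strand, so UMIs of such partners may be included.

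Of the 9 genes, 6 have promoter windows in the RefSeq table on GRCm38.p6 (250 bases before to 50 after a start), 11 windows in all. They were searched on both strands for the letters of 5 motif families of lymphocyte factors, which were counted as well in all 32851 windows of the table. The TCF/LEF letters (CTTTGAA or CTTTGAT) occurred in 8.65% of all windows. The T-box letters (AGGTGTGA or AGGTGTTA) occurred in 1.69%, and the GATA letters (AGATAAG or TGATAAG) in 5.21%. The RUNX letters (TGTGGTT or TGCGGTT) occurred in 6.75%, and the ETS letters (CCGGAAG or CAGGAAG) in 20.9%. In the members' windows only the ETS letters occurred, in 3 of 11 (27.3%), 1 each of Tcf7, Lef1 and Tbx21. The Tbx21 window spans the GENCODE start of its gene. The Tcf7 window lies 419 bases from that start, and a second Tcf7 window at the start held no match. The Lef1 window belongs to a RefSeq start inside the gene, 45823 bases from the GENCODE start, and the other 3 Lef1 windows, 148 to 2320 bases from it, held no match. Those windows are shown because Tcf7 and Lef1 are the related pair that lay below all mock libraries in ligated T-like cells and Tbx21 is the T-box partner of Eomes. Capitals mark the ETS letters on either strand, a match of letters and not a known site, and the matches overlap no other motif searched.
Tcf7, chr11:52282546-52282845, minus strand: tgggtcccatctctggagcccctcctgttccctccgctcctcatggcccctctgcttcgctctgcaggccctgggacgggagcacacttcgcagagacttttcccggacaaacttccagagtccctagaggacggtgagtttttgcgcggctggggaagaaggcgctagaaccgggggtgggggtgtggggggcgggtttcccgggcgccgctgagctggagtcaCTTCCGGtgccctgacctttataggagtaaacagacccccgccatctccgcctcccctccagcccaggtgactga
Lef1, chr3:131156044-131156343, plus strand: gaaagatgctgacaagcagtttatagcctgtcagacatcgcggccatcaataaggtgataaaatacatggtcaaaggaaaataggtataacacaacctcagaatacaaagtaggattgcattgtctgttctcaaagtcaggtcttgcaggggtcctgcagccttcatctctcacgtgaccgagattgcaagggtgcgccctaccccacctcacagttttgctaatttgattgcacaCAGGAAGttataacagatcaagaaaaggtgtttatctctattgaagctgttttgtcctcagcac
Tbx21, chr11:97115282-97115581, minus strand: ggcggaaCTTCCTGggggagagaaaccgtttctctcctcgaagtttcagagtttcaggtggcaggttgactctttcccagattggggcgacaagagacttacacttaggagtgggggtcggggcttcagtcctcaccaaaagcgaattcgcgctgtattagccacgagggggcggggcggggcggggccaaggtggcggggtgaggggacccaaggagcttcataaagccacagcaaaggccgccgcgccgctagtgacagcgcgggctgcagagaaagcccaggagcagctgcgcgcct

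The class in which a member stood highest was the same in all 4 libraries for 4 of the 9 genes. Classes are clusters of these cells, so their levels are described and not tested. Lef1 was highest in T-like cells, Eomes in NK-like cells, Gata3 in ILC2-like cells and Zfp683 in Itgae/Tmem176b cells. Tcf7 was highest in T-like or NK-like cells, Tbx21 in NK-like or Itgae/Tmem176b cells, Ikzf2 in T-like or ILC2-like cells and Tox in T-like or Itgae/Tmem176b cells, depending on the library. Foxp3 was highest in T-like cells of 3 libraries and had 0 UMIs in all 4 classes of mock 1. When cells were classed one by one from marker UMIs without clusters, the class with the highest level was the same in 31 of 35 pairs of gene and library with any UMI. The exceptions were Tbx21 in mock 1 and mock 3 and Ikzf2 in the ligated library and mock 2, where leading classes lay close together.

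**Figure D1:**
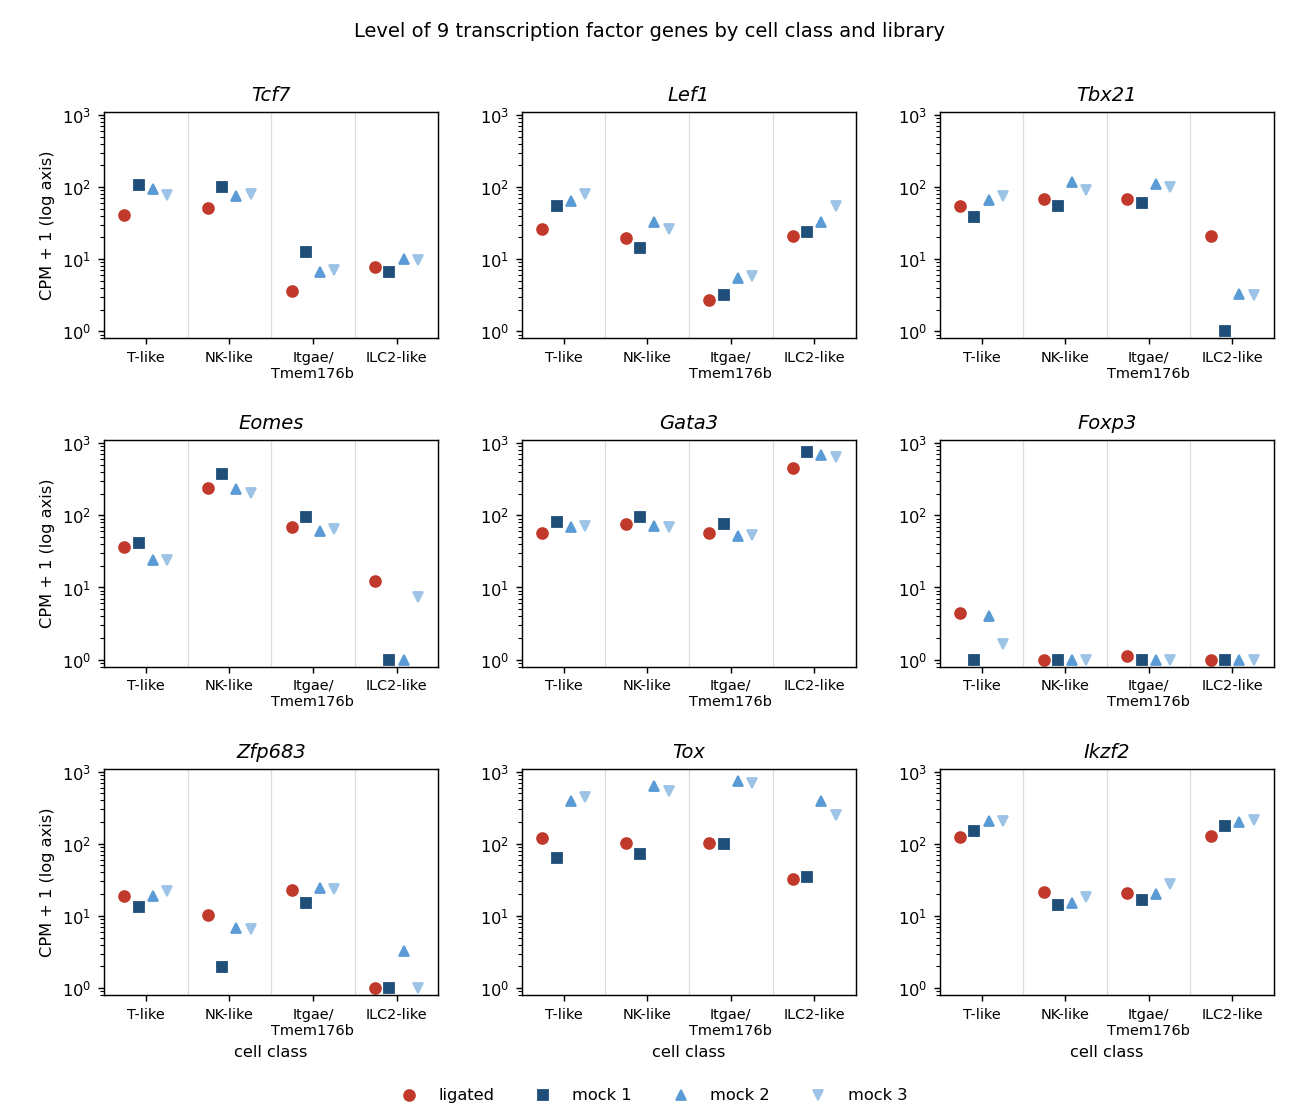
Level of each of the 9 genes (CPM plus 1, log axis) in T-like, NK-like, Itgae/Tmem176b and ILC2-like cells, 1 point per library. Tcf7 in T-like cells was 39.3 CPM in the ligated library, below 76.3 to 105 CPM in the mock libraries, and Tox in T-like cells was 119 CPM in the ligated library and 62.1 CPM in mock 1, far below 393 and 436 CPM in mock 2 and 3.

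Levels of several members differed between mock 1 and mock 2 and 3, which were counted with different software versions. Among genes with a mean of at least 20 CPM, those with over 100 kb of introns were higher in mock 2 and 3 than in mock 1, by a median log2 ratio of 1.00, 0.97, 0.87 and 1.08 in T-like, NK-like, Itgae/Tmem176b and ILC2-like cells. Between the ligated library and mock 1, counted with the same version, the medians for these genes were -0.08, -0.06, -0.12 and -0.09 in the same classes. Genes with 1 to 10 kb of introns differed by medians of -0.09 to -0.02 between mock 2 and 3 and mock 1. Tox was extreme among the members: its log2 ratio of mock 2 and 3 to mock 1 was 2.72 in T-like, 3.01 in NK-like, 2.83 in Itgae/Tmem176b and 3.19 in ILC2-like cells. Tbx21, with short introns, was also higher in mock 2 and 3 than in mock 1, by 0.86, 0.94 and 0.83 in T-like, NK-like and Itgae/Tmem176b cells, and Eomes had ratios of -0.80, -0.79 and -0.60. Version, set of listed genes and mouse cannot be told apart among the mock libraries. Comparisons within the older version rest on the ligated library and mock 1 alone, which differ in the set of listed genes.

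**Figure D2:**
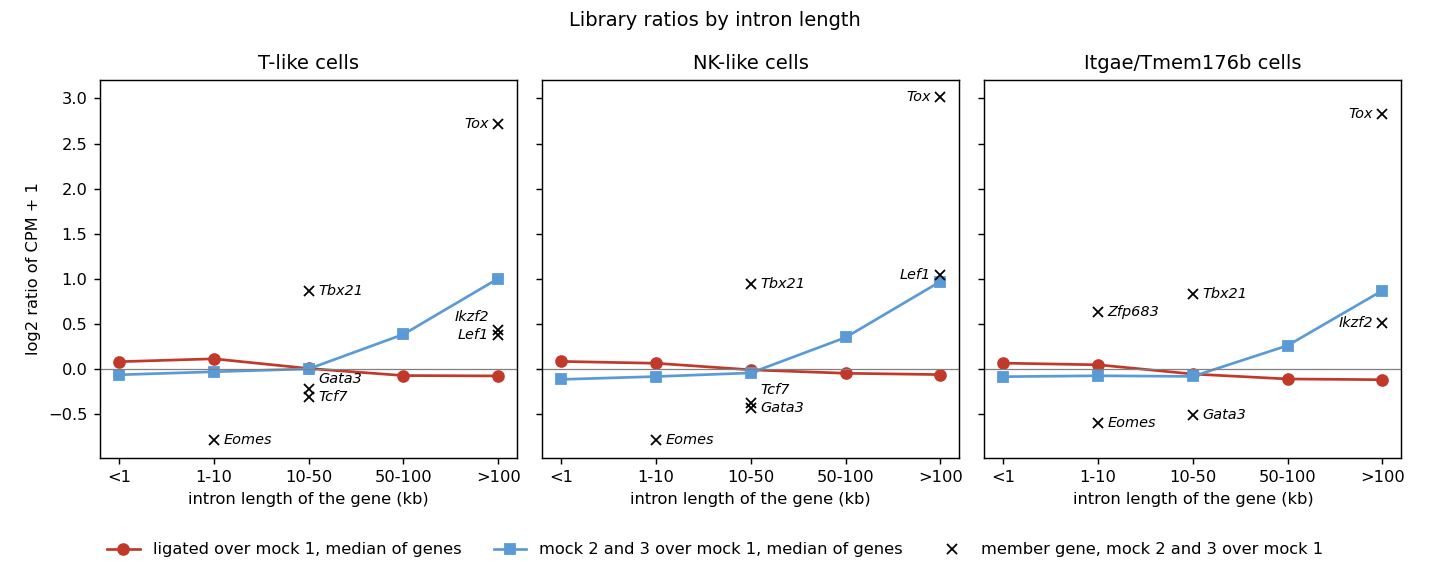
Median log2 ratio of CPM plus 1 by intron length (kb) of the gene, in T-like, NK-like and Itgae/Tmem176b cells. The red line is ligated over mock 1, the blue line the mean of mock 2 and 3 over mock 1, and crosses are member genes with a mean of at least 20 CPM, mock 2 and 3 over mock 1. Blue medians reach 0.87 to 1.00 for genes with over 100 kb of introns while red medians there stay between -0.12 and -0.06.

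The comparison of ligated with mock glands asks how the factors differ in each class 14 days after duct obstruction. Members were tested in edgeR's quasi-likelihood test on summed UMIs with Benjamini-Hochberg adjustment over all genes of a class, and the ligated library, with no replicate, was assumed to vary like the mock libraries. Foxp3 passed the filter on low counts in no class and Tcf7, Tbx21, Eomes and Zfp683 not in ILC2-like cells, so 8 members were tested in T-like, NK-like and Itgae/Tmem176b cells and 4 in ILC2-like cells. No member passed the adjusted threshold of 0.05. Over all genes 0.0106% were called higher in T-like, 0% in NK-like, 0% in Itgae/Tmem176b and 0.0775% in ILC2-like cells, and 0% lower in each. The single call in T-like cells was Mgp, a matrix gene named after its value was seen, at 215 CPM in the ligated library and at 8.10, 3.70 and 5.09 CPM in mock 1, 2 and 3 (edgeR adjusted p = 0.0449), beside the fibroblast markers given above. At an unadjusted p under 0.05 lay 9.56, 5.96, 5.95 and 9.31% of genes in T-like, NK-like, Itgae/Tmem176b and ILC2-like cells (905, 576, 678 and 601 genes), and DESeq2 called 27, 7, 19 and 2. Without mock 1, which leaves the 2 alike libraries as the mock group, 3530, 2707, 6413 and 0 genes passed. A p that misses the threshold in this design does not show that levels were alike.

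In T-like cells the ligated library lay below all 3 mock libraries for 4 of 8 members and above for 0, against 26.8% of all tested genes below and 23.7% above. In NK-like cells 1 of 8 lay below and 2 above, against 26.8 and 26.6% of genes. In Itgae/Tmem176b cells 2 lay below and 0 above, against 28.5 and 24.8% of genes. In ILC2-like cells all 4 tested members (Lef1, Gata3, Tox and Ikzf2) lay below, against 25.7% of genes below and 24.6% above. Of the members that failed the count filter there, Tbx21 and Eomes lay above all mock libraries. Tbx21 was at 20.0 CPM in the ligated library and 0 to 2.30 CPM in mock libraries. Eomes was at 11.1 CPM in the ligated library and 0 to 6.49 CPM in mock libraries. Tcf7 and Zfp683 lay inside the mock range, and Foxp3 had no UMI. The tested members' median log2 fold change was -0.45, -0.26, -0.23 and -0.72 in the 4 classes, beside -0.02, -0.03, -0.02 and -0.02 over all genes tested.

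Tcf7 and Lef1 each lay below all 3 mock libraries in 3 classes, Tcf7 in T-like, NK-like and Itgae/Tmem176b cells and Lef1 in T-like, Itgae/Tmem176b and ILC2-like cells. In T-like cells Tcf7 was at 39.3 CPM in the ligated library and at 105, 93.4 and 76.3 CPM in mock 1, 2 and 3. NK-like cells held it at 49.8 CPM in the ligated library and at 98.9, 73.5 and 78.4 CPM in mock 1, 2 and 3. In Itgae/Tmem176b cells, where it was scarce, it was at 2.65 CPM in the ligated library and at 11.4, 5.54 and 6.10 CPM in mock 1, 2 and 3. The ligated library was thus the lowest of the 4 in each of these classes, with no overlap, and the classes share the same 4 libraries. In bulk sums of a class, fewer cells with the gene and less RNA per cell cannot be told apart. ILC2-like cells showed no such pattern, with 3 UMIs in the ligated library and 1, 4 and 4 UMIs in mock 1, 2 and 3. The log2 fold change of ligated over mock was -1.17 ± 0.32 (SE) in T-like cells (edgeR adjusted p = 0.51), -0.73 ± 0.31 in NK-like cells (edgeR adjusted p = 0.661) and -1.48 ± 0.60 in Itgae/Tmem176b cells (edgeR adjusted p = 0.614).

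Against mock 1, the library of the same software version, Tcf7 was also lower: the log2 ratio with 1 CPM added was -1.40 in T-like, -0.97 in NK-like and -1.77 in Itgae/Tmem176b cells. Being below all 3 mock libraries and at least 2-fold below mock 1 on that scale was found for 2.04% of tested genes in T-like cells. The share was 2.41% in NK-like, 0.72% in Itgae/Tmem176b and 7.08% in ILC2-like cells. Tcf7 met this in T-like and Itgae/Tmem176b cells. In NK-like cells, at -0.97, Tcf7 did not, and in ILC2-like cells it was not tested. A fit with a term for the software version also sets the ligated library against mock 1 alone, since no other library shares its version. With the software version as a term in the fit, Tcf7 fell by 1.46 ± 0.23 (SE) on the log2 scale in T-like cells (edgeR adjusted p = 5.8e-08), by 1.01 ± 0.23 in NK-like cells (adjusted p = 0.00126) and by 2.09 ± 0.41 in Itgae/Tmem176b cells (adjusted p = 2.0e-05). That fit takes its spread from mock 2 and mock 3 alone, the 2 libraries that were unusually alike, and it calls 336, 301 and 1093 genes in the 3 classes. Without mock 1 the log2 fold changes of Tcf7 were -1.02, -0.58 and -1.11, with edgeR adjusted p = 2.0e-08, 0.0233 and 0.00311.

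The share of cells with a Tcf7 UMI was also lowest in the ligated library in T-like and NK-like cells. In T-like cells it was 15.2% in the ligated library (exact 95% interval 13.1 to 17.5%) and 40.0, 35.5 and 24.8% in mock 1, 2 and 3. For NK-like cells it was 20.7% in the ligated library (16.6 to 25.3%) and 41.0, 34.7 and 32.4% in mock 1, 2 and 3. Endothelial-like cells, which should lack the gene, had a Tcf7 UMI in 0.575% of cells in the ligated library, against 0.448, 0.453 and 0.290% in mock 1, 2 and 3, at median depths of 3064 to 5138 UMIs, against 4351 to 5722 UMIs in T-like cells. After each cell was thinned to 1500 UMIs the T-like shares were 5.52% in the ligated library, against 15.0, 12.4 and 10.0% in mock 1, 2 and 3, leaving out 6 ligated and 0, 0 and 4 mock cells. In Itgae/Tmem176b cells the thinned share was 0.306% in the ligated library, against 1.43, 0.161 and 0.738% in mock 1, 2 and 3, so the groups overlapped. Thinned endothelial-like cells had 0.273% in the ligated library, against 0.118, 0.185 and 0.143% in mock 1, 2 and 3, so the ligated library and mock 2 lie near that background. Tcf7 in endothelial-like cells was at 1.31 CPM in the ligated library and at 0.785, 1.06 and 0.802 CPM in mock 1, 2 and 3, so the ligated level of Itgae/Tmem176b cells lies near the values of cells that should lack the gene. The intervals cover counting error only, and an exact permutation test of 1 library against 3 cannot give a p under 0.25.

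Within T-like cells the lower level was seen in 3 of the 4 clusters. In the Trgv2 cluster Tcf7 was at 16.2 CPM in the ligated library and at 57.2, 34.5 and 40.7 CPM in mock 1, 2 and 3. The Cd8b1 cluster held it at 40.5 CPM in the ligated library and at 118, 107 and 74.2 CPM in mock 1, 2 and 3, where mock 1 has 29 cells. In the Cd40lg cluster, where mock levels were highest, it was at 100.2 CPM in the ligated library and at 241, 167 and 149 CPM in mock 1, 2 and 3. The Cd163l1 cluster differed, at 105 CPM in the ligated library and at 90.4, 104 and 111 CPM in mock 1, 2 and 3, although mock 1 had 11 such cells and the cluster's own markers were lower in the ligated library, as given above. Among Itgae/Tmem176b cells the small Tmem176b subset was at 9.52 CPM in the ligated library and at 25.2, 29.5 and 24.9 CPM in mock 1, 2 and 3, also without overlap. In the Itgae subset the ligated library lay below all mock libraries in 2 of the 4 clusters and overlapped them in 2. In the cluster with Klra8 and Klra9 in the lead, which held 37.6% of ligated Itgae cells, against 24.9, 14.9 and 17.1% in mock 1, 2 and 3, Tcf7 was at 3.30 CPM in the ligated library and at 25.1, 1.93 and 9.38 CPM in mock 1, 2 and 3. In the cluster with Itgam in the lead it was at 2.89 CPM in the ligated library and at 14.0, 11.1 and 9.87 CPM in mock 1, 2 and 3, from 14 UMIs in the ligated library and 9, 12 and 15 UMIs in mock 1, 2 and 3. The fold change of T-like cells without the Cd8b1 cluster was -1.15 on the log2 scale (edgeR adjusted p = 0.508), close to the value with it.

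Lef1, the relative of Tcf7, lay lower in ligated T-like cells too. It was at 25.4 CPM in the ligated library and at 54.0, 62.2 and 78.8 CPM in mock 1, 2 and 3, without overlap, and the fold change was -1.32 ± 0.33 (SE) on the log2 scale (edgeR adjusted p = 0.51). With the version term it fell by 1.12 on the log2 scale, and the log2 ratio to mock 1 was -1.06. These values are not separate, since with that term the ligated library is set against mock 1 alone. The spread of that fit comes from mock 2 and mock 3, the alike pair. Its level was lower in the ligated library in the Trgv2, Cd8b1 and Cd40lg clusters and not in the Cd163l1 cluster, with 43.2 CPM in the ligated library and 15.1 to 62.1 CPM in mock libraries. In the Cd40lg cluster it was at 80.5 CPM in the ligated library and at 155, 108 and 221 CPM in mock 1, 2 and 3. The groups overlapped in NK-like cells, with 18.6 CPM in the ligated library and 13.2, 31.4 and 24.8 CPM in mock 1, 2 and 3. In ILC2-like cells Lef1 was at 20.0 CPM in the ligated library and at 22.5, 32.2 and 54.1 CPM in mock 1, 2 and 3, with the ligated library close to mock 1. The fold changes were -1.16 ± 0.66 in Itgae/Tmem176b cells (edgeR adjusted p = 0.615) and -0.88 ± 0.63 in ILC2-like cells (edgeR adjusted p = 0.719). In the Itgae subset Lef1 was nearly absent, with 0.474 CPM in the ligated library and 0 to 2.30 CPM in mock libraries, while the Tmem176b subset held 19.0 CPM in the ligated library and 30.3 to 52.2 CPM in mock libraries. The pooled level of both was low, at 1.71 CPM in the ligated library and 2.14 to 4.78 CPM in mock libraries. The Tmem176b subset was 148 of 2617 pooled cells in the ligated library. In mock 1, 2 and 3 it was 34 of 419, 52 of 621 and 80 of 953 cells. The part of these shares in the pooled Lef1 level was not tested.

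**Figure D3:**
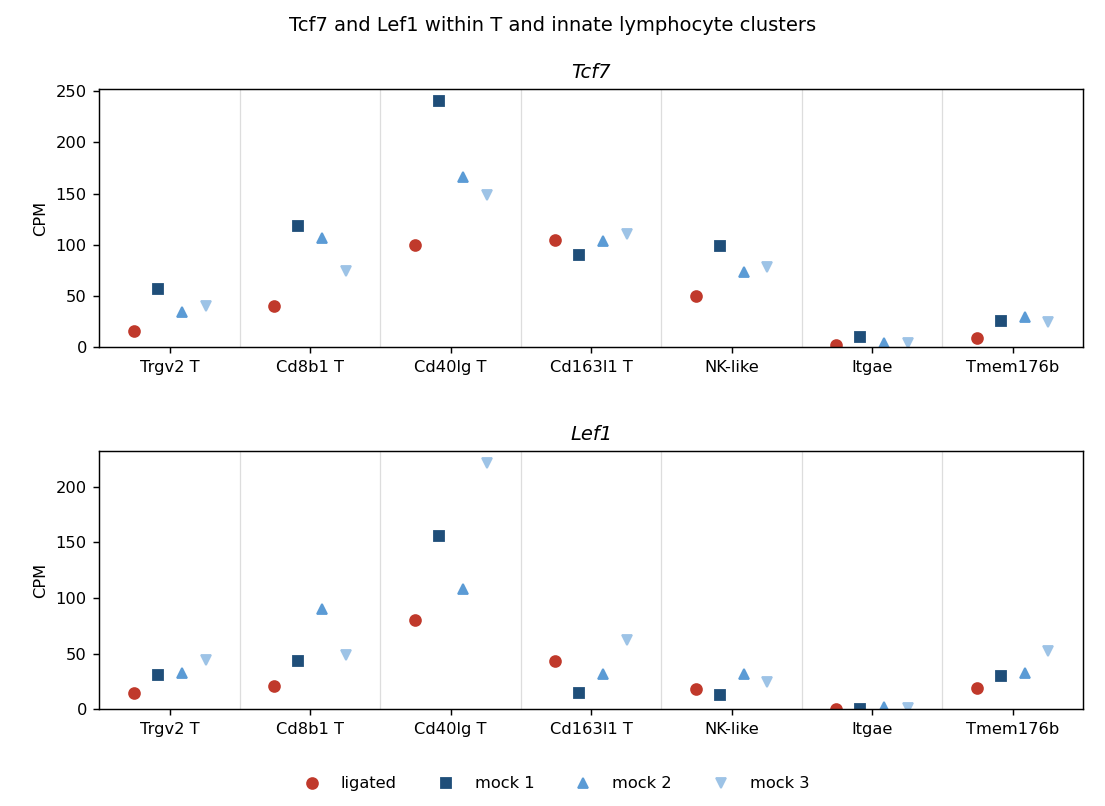
Level (CPM) of Tcf7 and Lef1 in the 4 T clusters, NK-like cells and the Itgae and Tmem176b subsets, 1 point per library. The ligated library is lowest in the Trgv2, Cd8b1 and Cd40lg clusters for both genes, for example Tcf7 at 100.2 CPM in the Cd40lg cluster against 149 to 241 CPM in the mock libraries, and not in the Cd163l1 cluster.

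In each library T-like cells with a Tcf7 UMI had a Lef1 UMI more often than those without, a difference that was not tested. Of ligated T-like cells with a Tcf7 UMI 18.7% (31 of 166) had a Lef1 UMI, against 8.85% of those without. In mock 1, 2 and 3 the shares were 41.7, 27.3 and 39.7% of cells with Tcf7 and 6.94, 21.4 and 17.6% of cells without. Median depths were 4576 UMIs with Tcf7 and 4319 without in the ligated library, against 5447.5 with and 5117 without in mock 1, 5507 with and 5806 without in mock 2, and 5338 with and 4622 without in mock 3, so cells with Tcf7 were the deeper ones in all libraries but mock 2.

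Of the T-box pair, Eomes differed in level between NK-like and Itgae/Tmem176b cells and Tbx21 did so little. Eomes was at 236 CPM in the ligated library and at 376, 231 and 204 CPM in mock 1, 2 and 3 among NK-like cells. Among Itgae/Tmem176b cells it was at 67.7 CPM in the ligated library and at 93.6, 59.1 and 64.0 CPM in mock 1, 2 and 3, so NK-like cells were higher in every library. The Tmem176b subset was lower again, with 30.5 CPM in the ligated library and 20.2 to 27.2 CPM in mock libraries. Tbx21 was at 66.3 CPM in the ligated library and at 52.8, 116 and 88.95 CPM in mock 1, 2 and 3 in NK-like cells. In Itgae/Tmem176b cells it was at 66.3 CPM in the ligated library and at 58.3, 109.8 and 99.6 CPM in mock 1, 2 and 3, nearly level with NK-like cells of the same library. The Tmem176b subset was highest for Tbx21, with 75.2 CPM in the ligated library and 101, 212 and 181 CPM in mock 1, 2 and 3.

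Neither T-box gene lay above or below all mock libraries in pooled NK-like, Itgae/Tmem176b or T-like cells. In the Tmem176b subset both did, Tbx21 below and Eomes above, by the values just given. Among T clusters Eomes lay below all mock libraries in the Cd8b1 cluster, at 51.9 CPM in the ligated library and 54.8 to 81.0 CPM in mock libraries. It lay above them in the Cd40lg cluster, at 11.5 CPM in the ligated library and 0 to 6.53 CPM in mock libraries, from 7 UMIs in the ligated library and 0, 2 and 0 UMIs in mock 1, 2 and 3. Tbx21 lay above them in the Cd163l1 cluster, at 20.5 CPM in the ligated library and 0 to 15.1 CPM in mock libraries. That order rests on 74 ligated cells and 11, 41 and 44 cells in mock 1, 2 and 3. There 3 counts amount to 45.2, 11.9 and 13.3 CPM in mock 1, 2 and 3, so the mock values lie near the floor. Each gene overlapped in the T clusters not named for it. The log2 fold change of Eomes was -0.19 ± 0.40 (SE) in NK-like cells (edgeR adjusted p = 0.896), -0.07 ± 0.34 in Itgae/Tmem176b cells (edgeR adjusted p = 0.954) and 0.39 ± 0.42 in T-like cells (edgeR adjusted p = 0.756). That of Tbx21 was -0.37 ± 0.43 in NK-like cells (edgeR adjusted p = 0.805), -0.40 ± 0.39 in Itgae/Tmem176b cells (edgeR adjusted p = 0.733) and -0.09 ± 0.37 in T-like cells (edgeR adjusted p = 0.945). With the version term, that is against mock 1 alone, Eomes fell by 0.70 on the log2 scale in NK-like cells and by 0.45 in Itgae/Tmem176b cells. Tbx21 turned to 0.31 and 0.20 there. Without mock 1 Tbx21 fell by 0.62 ± 0.09 on the log2 scale in Itgae/Tmem176b cells (edgeR adjusted p = 4.7e-11) and by 0.59 ± 0.18 in NK-like cells (adjusted p = 0.0163), and Eomes rose by 0.72 ± 0.23 in T-like cells (adjusted p = 0.00556). Those fits have the 2 alike libraries as the mock group. In ILC2-like cells Tbx21 had 9 UMIs in 5 cells of the ligated library and 0, 1 and 1 UMIs in mock 1, 2 and 3. The list of markers shared by NK cells and ILC1s summed there to 1834 CPM in the ligated library and to 22.5, 756 and 234 CPM in mock 1, 2 and 3, and its part in the Tbx21 counts was not tested. Of NK-like cells with a Tbx21 UMI, 67.3% also had an Eomes UMI in the ligated library, against 93.2, 77.4 and 74.8% in mock 1, 2 and 3. Of NK-like cells without a Tbx21 UMI 66.8% had one in the ligated library, against 81.3, 61.6 and 60.6% in mock 1, 2 and 3, so the shares with and without Tbx21 were close in the ligated library. For Itgae/Tmem176b cells the shares were 32.6% with and 25.4% without Tbx21 in the ligated library, against 36.2, 33.3 and 29.3% with and 40.1, 28.8 and 25.5% without in mock 1, 2 and 3.

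Gata3 marked ILC2-like cells. It was at 452 CPM in the ligated library and at 743, 679.8 and 638 CPM in mock 1, 2 and 3, against 44.9 to 119.7 CPM in the NK-like cells, the Itgae and Tmem176b subsets and the T clusters of all libraries. A Gata3 UMI was found in 85.9% of ligated ILC2-like cells (exact 95% interval 76.2 to 92.7%) and in 94.7, 93.1 and 91.0% in mock 1, 2 and 3. The ligated library lay below all mock libraries in ILC2-like cells, with a log2 fold change of -0.56 ± 0.34 (SE) that did not pass (edgeR adjusted p = 0.675). The ILC2 marker list, which does not hold Gata3, summed to 1302 CPM in ligated ILC2-like cells and to 2060.2, 2060.0 and 1821 CPM in mock 1, 2 and 3, and its part in the Gata3 level was not tested. T-like cells were at 55.2 CPM in the ligated library and at 81.0, 68.9 and 69.9 CPM in mock 1, 2 and 3, also lowest in the ligated library, with a log2 fold change of -0.36 ± 0.28 (edgeR adjusted p = 0.675). Within the Trgv2 cluster the groups overlapped, with 59.2 CPM in the ligated library and 80.6, 61.0 and 56.4 CPM in mock 1, 2 and 3. The ligated library lay below all mock libraries in the other 3 T clusters. Gata3 was there at 44.9 CPM in the ligated library and 56.6 to 81.0 CPM in mock libraries for the Cd8b1 cluster, 62.4 CPM in the ligated library and 85.4 to 119.7 CPM in mock libraries for the Cd40lg cluster, and 61.4 CPM in the ligated library and 63.7 to 75.3 CPM in mock libraries for the Cd163l1 cluster. The Tmem176b subset was also lowest in the ligated library, at 54.3 CPM in the ligated library and 85.5 to 97.5 CPM in mock libraries, while the Itgae subset overlapped. The pooled NK-like and Itgae/Tmem176b cells overlapped as well, with log2 fold changes of -0.04 and -0.05.

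Zfp683, which encodes Hobit, was sparse, with UMIs in at most 14.8% of the cells of any of the 4 classes. It was at 21.7 CPM in the ligated library and at 14.3, 23.2 and 22.3 CPM in mock 1, 2 and 3 in Itgae/Tmem176b cells. In T-like cells it was at 17.6 CPM in the ligated library and at 12.2, 17.8 and 20.98 CPM in mock 1, 2 and 3, with the ligated library inside the mock range in both classes. NK-like cells held 9.31 CPM in the ligated library and 0.942, 5.86 and 5.50 CPM in mock 1, 2 and 3, from 17 UMIs in the ligated library and 1, 11 and 12 UMIs in mock 1, 2 and 3. ILC2-like cells held 1 UMI in mock 2 and 0 in the other libraries, where 0 of 78 ligated cells allows a share of up to 3.85% of cells with a UMI. Fold changes were 0.14 ± 0.33 (SE) in Itgae/Tmem176b cells (edgeR adjusted p = 0.898), 0.06 ± 0.36 in T-like cells (edgeR adjusted p = 0.967) and 1.07 ± 0.79 in NK-like cells (edgeR adjusted p = 0.697). Within T-like cells the Trgv2 cluster held 22.3 CPM in the ligated library and 13.0 to 28.9 CPM in mock libraries. The Cd163l1 cluster held 6.83 CPM in the ligated library, which is 3 counts there, and 0 to 4.44 CPM in mock libraries. The ligated library was below all mock libraries in the Cd8b1 cluster, at 14.6 CPM in the ligated library and 18.7 to 26.6 CPM in mock libraries. It was above them in the Cd40lg cluster, at 11.5 CPM in the ligated library and 7.25 to 9.80 CPM in mock libraries. That order rests on 7 ligated cells with a Zfp683 UMI and 1, 3 and 2 cells in mock 1, 2 and 3. In the Tmem176b subset the ligated library was also above, at 25.7 CPM in the ligated library and 10.1 to 15.9 CPM in mock libraries. There 21 ligated cells had a UMI, and 2, 4 and 5 cells in mock 1, 2 and 3.

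Foxp3 was found in 16 cells of all libraries, and 12 of them were T-like. The T-like cells held 20 UMIs in 9 cells of the ligated library, against 0, 4 and 1 UMIs in 0, 2 and 1 cells of mock 1, 2 and 3. The share of T-like cells was 0.823% in the ligated library (exact 95% interval 0.377 to 1.56%) and 0, 0.922 and 0.340% in mock 1, 2 and 3, and 0 of 120 cells in mock 1 allows up to 2.50%. Endothelial-like cells of the ligated library had a Foxp3 UMI in 1 of 4177 cells. The level in T-like cells was 3.42 CPM in the ligated library and 0, 2.96 and 0.64 CPM in mock 1, 2 and 3, and in the Cd40lg cluster 23.0 CPM in the ligated library and 0 to 13.1 CPM in mock libraries. The ligated library was highest in both, from few cells, and since Foxp3 passed the count filter in no class this was not tested. No NK-like or ILC2-like cell had a Foxp3 UMI.

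The Foxp3 cells carried some but not all of the regulatory T cell genes examined. All 12 had UMIs of Ikzf2, of Tnfrsf18, the GITR receptor, and of Capg, an actin-capping protein gene, against 31.5, 45.6 and 45.7% of the other T-like cells. Tnfrsf4, the OX40 receptor, was found in 10 of 12, against 4.96% of the others, Izumo1r, a folate receptor family gene, in 6, against 4.56%, and Ctla4, an inhibitory receptor, in 4, against 4.96%. Ikzf4, an Ikaros-family gene, was found in 4, against 2.86% of the others, Cd4, the helper T cell co-receptor, in 3, against 8.18%, and Il2ra, the interleukin 2 receptor alpha chain, in 2, against 8.18%. Lrrc32, a surface anchor of latent TGF-beta, was found in 0 of 12, against 0.876% of the others. Their median depth was 6278 UMIs, against 4664.5 in the other T-like cells. By cluster, 5 lay in the Trgv2 cluster, 6 in the Cd40lg cluster, 1 in the Cd163l1 cluster and 0 in the Cd8b1 cluster.

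Ikzf2 was not confined to Foxp3 cells. It was at 124 CPM in the ligated library and at 149.9, 203 and 202 CPM in mock 1, 2 and 3 in T-like cells. In ILC2-like cells it was at 127 CPM in the ligated library and at 175, 198 and 209.8 CPM in mock 1, 2 and 3, in both classes with the ligated library lowest. NK-like cells held 20.3 CPM in the ligated library and 13.2, 13.8 and 17.4 CPM in mock 1, 2 and 3, with the ligated library highest. That order did not hold in cells classed one by one from marker UMIs, where NK-like cells held 3.89 CPM in the ligated library and 7.28, 7.30 and 22.3 CPM in mock 1, 2 and 3 and the log2 fold change was -1.64. These values rest on 1 UMI in the ligated library and 3, 6 and 23 UMIs in mock 1, 2 and 3. The share of clustered NK-like cells with an Ikzf2 UMI overlapped, with 5.46% in the ligated library, against 4.49, 6.27 and 6.93% in mock 1, 2 and 3. The fold changes were -0.53 ± 0.26 (SE) in T-like cells (edgeR adjusted p = 0.534), -0.57 ± 0.38 in ILC2-like cells (edgeR adjusted p = 0.69) and 0.44 ± 0.36 in NK-like cells (edgeR adjusted p = 0.723). Against mock 1, of the same software version, the log2 ratios were -0.27, -0.46 and 0.58. Among T clusters the Cd163l1 cluster was highest, at 187 CPM in the ligated library and at 286, 418 and 448 CPM in mock 1, 2 and 3, beside the lower Cd163l1 and Trdc of the ligated cluster given above. The Cd8b1 cluster was lowest, with 22.2 CPM in the ligated library and 19.3 to 39.9 CPM in mock libraries. In the Cd40lg cluster the ligated library lay above all mock libraries, at 159 CPM in the ligated library and at 109, 140.5 and 68.9 CPM in mock 1, 2 and 3, unlike in the pooled T-like cells. The share of Cd40lg cells with an Ikzf2 UMI overlapped, with 26 of 150 ligated cells, against 4 of 32, 12 of 68 and 11 of 72 in mock 1, 2 and 3. The Tmem176b subset held 96.1 CPM in the ligated library and 90.8, 112 and 170.1 CPM in mock 1, 2 and 3, against 14.5 CPM in the ligated library and 10.0 to 15.5 CPM in mock libraries for the Itgae subset. Fibroblast-like cells also expressed Ikzf2, with 25.2 CPM in the ligated library and 35.6 to 61.0 CPM in mock libraries.

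Tox, the member with the longest introns, differed most between the mock libraries, where version, set of listed genes and mouse cannot be told apart. Its values are therefore read first beside mock 1, of the same software version though not the same set of listed genes. In Itgae/Tmem176b cells it was at 102 CPM in the ligated library and at 99.0, 728 and 688 CPM in mock 1, 2 and 3. NK-like cells held it at 99.7 CPM in the ligated library and at 71.6, 626 and 544 CPM in mock 1, 2 and 3. In T-like cells it was at 119 CPM in the ligated library and at 62.1, 393 and 436 CPM in mock 1, 2 and 3. In these classes the gap between mock 1 and mock 2 and 3 was wider than that between the ligated library and mock 1. The pooled fold changes of -2.27 ± 1.23 (SE) in Itgae/Tmem176b cells (edgeR adjusted p = 0.614), -2.04 ± 1.18 in NK-like cells (edgeR adjusted p = 0.664), -1.26 ± 0.93 in T-like cells (edgeR adjusted p = 0.657) and -2.81 ± 0.95 in ILC2-like cells (edgeR adjusted p = 0.407) turned to 0.06, 0.45, 0.91 and -0.15 with the version term. That term sets the ligated library against mock 1 alone, with the spread taken from mock 2 and mock 3. The value of 0.91 in T-like cells is thus not separate from the log2 ratio to mock 1, which was 0.93.

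The Cd8b1 cluster stood apart for Tox. It was at 207 CPM in the ligated library and at 81.0, 266 and 216 CPM in mock 1, 2 and 3, so that the ligated library lay far above mock 1 there and close to mock 2 and 3. In the other T clusters it lay below mock 2 and 3 by a wide margin, with 89.3 CPM in the ligated library and 44.2, 465 and 507 CPM in mock 1, 2 and 3 for the Trgv2 cluster. Beside mock 1 the clusters went in different directions. The ligated library was above it in the Cd8b1 and Trgv2 clusters and below it in the Cd40lg cluster, at 50.9 CPM in the ligated library and at 77.6, 376 and 316 CPM in mock 1, 2 and 3. It was below mock 1 in the Cd163l1 cluster too, at 47.8 CPM in the ligated library and at 90.4, 426 and 648 CPM in mock 1, 2 and 3. The mock 1 value of the Cd8b1 cluster rests on 29 cells. Cells with a Tox UMI made up 36.4% of ligated Cd8b1 cells after thinning to 3000 UMIs, and 14.3, 40.5 and 37.7% in mock 1, 2 and 3. Pdcd1 and Lag3 are inhibitory receptor genes known to accompany TOX in chronic stimulation. In T-like cells Pdcd1 was at 41.7 CPM in the ligated library and at 21.6, 22.2 and 12.1 CPM in mock 1, 2 and 3 and Lag3 at 37.7 CPM in the ligated library and at 14.9, 8.15 and 5.72 CPM in mock 1, 2 and 3, both above each mock library without passing the test (edgeR adjusted p = 0.51 for both). They are 2 of the 10 tested genes of the chronic stimulation list, of which 3 lay above and 2 below all mock libraries, with a median log2 fold change of -0.27. The values are of pooled T-like cells, of which the Cd8b1 cluster made up 43.2% in the ligated library, against 24.2, 19.8 and 20.1% in mock 1, 2 and 3.

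**Figure D4:**
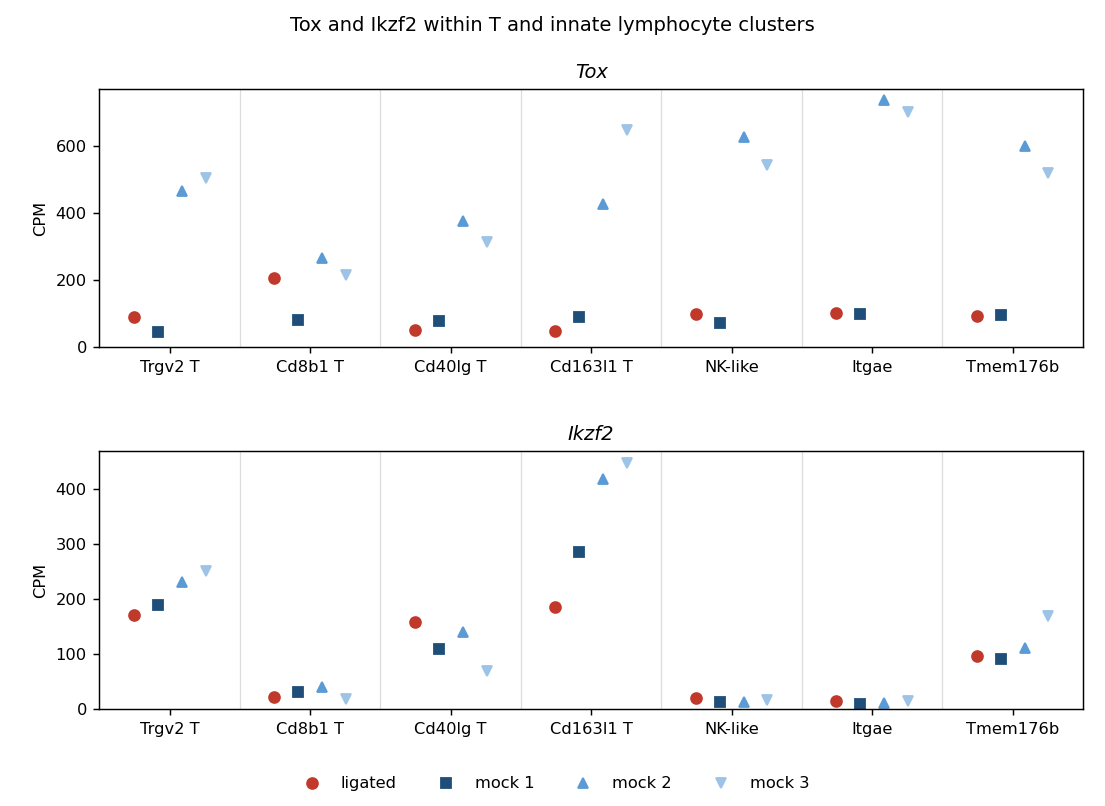
Level (CPM) of Tox and Ikzf2 in the 4 T clusters, NK-like cells and the Itgae and Tmem176b subsets, 1 point per library. Tox in the ligated library and mock 1 lies far below mock 2 and 3 in all groups but the Cd8b1 cluster, where the ligated library is at 207 CPM and mock 1 at 81.0 CPM.

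Whether the change with ligation differed between T-like and Itgae/Tmem176b cells was tested with a term for each library, which removes what a library shares between its classes. Of 11772 genes, 130 (1.1%) passed, against 196, 48 and 59 without mock 1, 2 and 3. Of the 9 members 1 did: Tox, with a difference of 1.03 ± 0.14 (SE) on the log2 scale, T-like minus Itgae/Tmem176b (edgeR adjusted p = 1.3e-10). Without the Cd8b1 cluster the difference was 0.28 ± 0.15 (adjusted p = 0.778), so the call depends on that cluster. The other 8 members did not pass, with differences between -1.11 for Foxp3 and 0.47 for Eomes. For Tcf7 the difference was 0.26 ± 0.32 (edgeR adjusted p = 0.938).

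**Figure D5:**
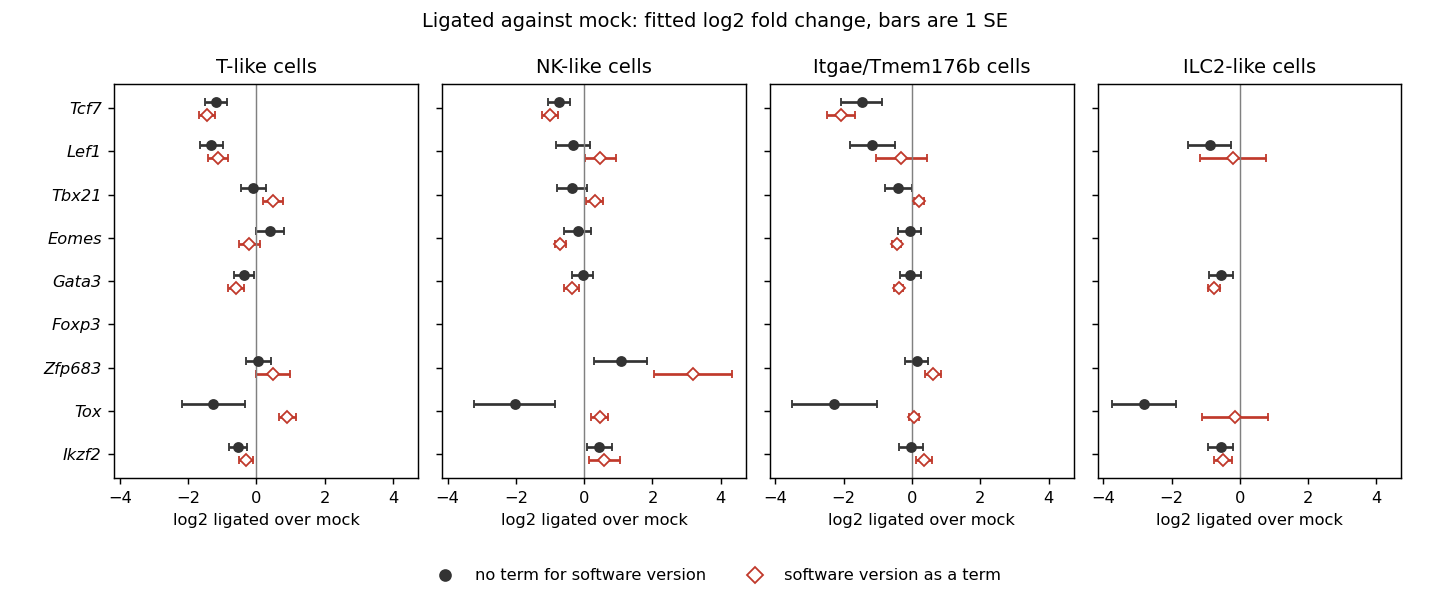
Fitted log2 fold change of ligated over mock (bars are 1 SE) of each member in T-like, NK-like, Itgae/Tmem176b and ILC2-like cells, without (filled circles) and with (open diamonds) the software version as a term. Tcf7 lies left of 0 in T-like, NK-like and Itgae/Tmem176b cells in both fits, and Tox in Itgae/Tmem176b cells is at -2.27 without and 0.06 with the term.

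Lists of genes of the members' programmes were read in the same fits. Counts of list genes in T-like cells stand beside 23.7% of all tested genes above all mock libraries and 26.8% below. None of the genes of the 7 lists passed in T-like, NK-like or Itgae/Tmem176b cells. In the list of the Tcf7 and Lef1 programme, 4 of 11 tested genes lay below all mock libraries in T-like cells and 4 above, with a median log2 fold change of -0.65 against -0.02 over all genes. The median had the opposite sign in the other classes with lower Tcf7, at 0.28 in NK-like cells, with 4 above and 2 below of 9, and 0.72 in Itgae/Tmem176b cells, with 4 above and 2 below of 8. Il7r, the interleukin 7 receptor chain, was at 181 CPM in the ligated library and at 511, 391.9 and 315 CPM in mock 1, 2 and 3 (edgeR adjusted p = 0.51). Within clusters Il7r was lower than in each mock library in the Trgv2 cluster, at 49.7 CPM in the ligated library and 69.1 to 185 CPM in mock libraries, and in the Cd40lg cluster, at 314 CPM in the ligated library and 428 to 1048 CPM in mock libraries. It lay inside the mock range in the Cd8b1 cluster, at 88.6 CPM in the ligated library and 80.6 to 411 CPM in mock libraries, and in the Cd163l1 cluster, at 1265 CPM in the ligated library and 1225 to 1596 CPM in mock libraries. These clusters also differed in share: the Cd40lg cluster made up 13.7% of T-like cells in the ligated library, against 26.7, 31.3 and 24.5% in mock 1, 2 and 3, and the Cd163l1 cluster 6.77%, against 9.17, 18.9 and 15.0%. Satb1, a chromatin organiser of T cells, was at 44.1 CPM in the ligated library and at 91.8, 69.6 and 79.5 CPM in mock 1, 2 and 3. Igfbp4, a growth factor binding protein gene, lay above all mock libraries, at 16.4 CPM in the ligated library and at 12.2, 7.41 and 4.45 CPM in mock 1, 2 and 3. In the list of type 1 effector genes 7 of 14 lay above all mock libraries in T-like cells and 3 below, with a median log2 fold change of 0.39, beside 23.7% of all tested genes above and 26.8% below. Nkg7, a cytotoxic granule gene, was at 2270.5 CPM in the ligated library and at 1101, 991 and 1186 CPM in mock 1, 2 and 3 (edgeR adjusted p = 0.468).

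Il18r1, a chain of the interleukin 18 receptor, was lower in the ligated library than in each mock library in the same 3 classes as Tcf7. In T-like cells it was at 47.6 CPM in the ligated library and at 154, 256 and 209 CPM in mock 1, 2 and 3, with a log2 fold change of -2.07 (edgeR adjusted p = 0.383). NK-like cells held it at 32.3 CPM in the ligated library and at 97.98, 106 and 108 CPM in mock 1, 2 and 3 (edgeR adjusted p = 0.661), and Itgae/Tmem176b cells at 3.16 CPM in the ligated library and at 6.79, 13.2 and 17.2 CPM in mock 1, 2 and 3 (edgeR adjusted p = 0.614). The genes whose log2 level (10 CPM added) correlated most with that of Tcf7 over 46 sums of a cell group and library were Il18r1, Cd28 and Cd160, with Pearson's r = 0.923, 0.921 and 0.885. These sums share libraries and the correlations are descriptions.

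The other lists were mixed in T-like cells. Of 30 other lymphocyte regulators 9 lay below all mock libraries and 4 above, with the lower count near the 26.8% of all tested genes. Bach2 and Bcl6, transcriptional repressors, lay below. Bach2 was at 9.90 CPM in the ligated library and at 17.6, 93.4 and 98.5 CPM in mock 1, 2 and 3. Bcl6 was at 7.34 CPM in the ligated library and at 12.2, 35.6 and 28.0 CPM in mock 1, 2 and 3. Both thus also differed between mock 1 and mock 2 and 3, where version, set of listed genes and mouse cannot be told apart. Of 13 residency genes 2 lay above and 3 below. The 2 were Gzmc, a granzyme, at 2312 CPM in the ligated library and at 998, 1111 and 1205 CPM in mock 1, 2 and 3, and Cd69, an early activation and residency antigen, at 635 CPM in the ligated library and at 496, 319 and 312 CPM in mock 1, 2 and 3. Gzmc was also highest in the ligated library in each T cluster and in each of the other classes. Of 10 chronic stimulation genes 3 lay above and 2 below, and of 11 regulatory T cell genes 2 above and 1 below. Of the type 2 list 4 genes were tested and 2 lay below, among them the chemokine receptor gene Ccr8, at 2.05 CPM in the ligated library and at 6.75, 17.8 and 15.9 CPM in mock 1, 2 and 3.

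In NK-like cells 5 of 12 residency genes lay above all mock libraries and 0 below, against 26.6 and 26.8% of all tested genes. Cxcr6, a chemokine receptor gene, was at 34.0 CPM in the ligated library and at 0.942, 5.32 and 9.63 CPM in mock 1, 2 and 3 (edgeR adjusted p = 0.661), and Gzmc at 650.2 CPM in the ligated library and at 108, 153 and 122 CPM in mock 1, 2 and 3 (edgeR adjusted p = 0.244). These genes also mark ILC1s, and the ILC1 marker list in NK-like cells summed to 4863 CPM in the ligated library and to 3713, 5584 and 5411 CPM in mock 1, 2 and 3. The NK marker list lay below all mock libraries in the same cells, at 4559.8 CPM in the ligated library and at 5593, 6012 and 5997 CPM in mock 1, 2 and 3, and its part in the residency genes and in Tcf7 was not tested. In Itgae/Tmem176b cells Cd69 was at 632 CPM in the ligated library and at 371, 283 and 306 CPM in mock 1, 2 and 3, and Id3, an inhibitor of E proteins, at 18.8 CPM in the ligated library and at 10.4, 4.69 and 5.61 CPM in mock 1, 2 and 3. Tigit, an inhibitory receptor gene of the chronic stimulation list, lay below all mock libraries in both classes, at 0.548 CPM in the ligated library and at 11.3, 22.9 and 23.8 CPM in mock 1, 2 and 3 in NK-like cells. Gzmc was highest in the ligated library in every class, T cluster and subset, also where mock libraries held little. In the Cd40lg cluster it was at 136 CPM in the ligated library and 0 to 7.25 CPM in mock libraries. ILC2-like cells held it at 908 CPM in the ligated library and 4.33 to 175 CPM in mock libraries. Itgae/Tmem176b cells, the largest class, held it at 5601 CPM in the ligated library, and their part in the other groups was not tested.

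ILC2-like cells had most of the calls. Of 5 genes higher in the ligated library 1 was in a list: Gzma, granzyme A, at 89.1 CPM in the ligated library and at 5.63, 2.30 and 2.16 CPM in mock 1, 2 and 3, with a log2 fold change of 4.90 ± 0.63 (SE, edgeR adjusted p = 0.0297). The others, named after their values were seen, were Mgp, Apoe, Ly6c2 and Cd74, of which Apoe and Cd74 are abundant in macrophages. The calls numbered 0, 63 and 0 without mock 1, 2 and 3, and 0 with the version term. Of 11 type 1 effector genes tested 9 lay above all mock libraries, against 24.6% of all tested genes, beside the shared NK and ILC1 markers given above. The T cell genes Cd3e and Trdc were at 24.5 and 35.6 CPM in the ligated library and at 0 in each mock library. The whole T marker list went the other way, at 1089 CPM in the ligated library and 1180 to 1254 CPM in mock libraries. The part of T cell RNA in the effector genes was not tested. Of 11 type 2 genes 6 lay below, against 25.7% of all tested genes. Il4, the type 2 cytokine gene, had 0 UMIs in the ligated library and 16.9, 18.4 and 36.8 CPM in mock 1, 2 and 3. Il2ra, the interleukin 2 receptor alpha chain, was at 118 CPM in the ligated library and at 343, 177 and 162 CPM in mock 1, 2 and 3. Il13, another type 2 cytokine gene, was at 26.7 CPM in the ligated library and at 22.5, 4.59 and 4.33 CPM in mock 1, 2 and 3. The ligated class rests on 78 cells.

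Genes with levels most like those of the other members were found in the same way. Tbx21 went with Samd3, Klra7 and Klra1 (r = 0.979, 0.977 and 0.977) and Eomes with Klrb1f, Klrc2 and Klre1 (0.971, 0.969 and 0.965), which but for Samd3 are NK receptor genes. Gata3 went with Slain1, Nfkbid and Tspan32 (0.947, 0.947 and 0.946), Lef1 with Gpr132 and Trdv4 (0.877 and 0.872), and Ikzf2 with Bcl11b, Icos and Tcrg-C1 (0.811, 0.806 and 0.794). Tox went with Dock5, Srgap3 and Prkcq (0.915, 0.907 and 0.902). Zfp683 went with Itgae, Plcxd2 and Gm36723 (0.924, 0.908 and 0.899) and Foxp3 with Cd8a, Cd8b1 and Trgv2 (0.802, 0.772 and 0.748), but both members average under 10 CPM over the sums.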

How the data were processed

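The values deposited by the authors are whole UMI counts of each gene in each barcode called as a cell, in 1 sparse matrix per library. The submitters' processing notes name Cell Ranger 7.0.1 and mm10, and the file headers give versions 6.0.1 and 7.0.0; this difference was not resolved, and the sources used here do not say whether intronic reads were counted. Genes were joined by ID. Kept cells had 500 or more UMIs, 300 or more genes and mitochondrial UMIs of 15% or less. Scrublet (in scanpy 1.11.5) at its automatic threshold called 739 and 75 barcodes in the ligated library and mock 1 and 0 in mock 2 and 3, so barcodes were ranked by score and the top 0.8% per 1000 barcodes removed from each library. Cells were clustered on 2000 variable genes, 30 components and 15 neighbours (Leiden, resolution 1.0), and lymphocytes again, with genes centred and scaled per library after unscaled clusters were seen to part by software version. Component scores were computed in double precision and rounded, after cells at cluster edges were seen to move with the numerical precision. Scoring of names was set after clusters were seen; clusters led by interferon genes, Ccl1 and Crtam, genes of other cell types, low in UMIs or rich in doublets stayed unnamed, so shares may differ from the study's. Itgae/Tmem176b cells pool 5 sub-clusters, in shares that differ between libraries; they were set apart from NK-like cells by the difference between the NK and ILC1 scores, and have no type name because NK genes lead some of them.

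UMIs were summed per class and library and tested with edgeR 4.0.16 (R 4.3.3; TMM, filterByExpr, quasi-likelihood F test, Benjamini-Hochberg at 0.05, exact intervals at 95%), with DESeq2 1.42.0 as an alternative; the code was tested on simulated data. P-values measure only the spread between these libraries. The genes named are the 9 members, the 3 genes most correlated with each, and from each of 7 lists those past the threshold, otherwise the 3 with the largest fold change at 10 CPM or more; the text gives a part of these, and 1 gene is not reported here. The members and lists were chosen with earlier results of these data known. Intron lengths are from GENCODE M21 (30329 of 30406 IDs matched). Floors use 3 counts.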

Additional observations from a re-analysis of the deposited data

Results flagged for a closer look

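Tox was the member for which the change with ligation differed between 2 classes by a test of the difference itself. The difference between T-like and Itgae/Tmem176b cells was 1.03 on the log2 scale (edgeR adjusted p = 1.3e-10), with a fold change of -1.26 in T-like cells and -2.27 in Itgae/Tmem176b cells. It stayed past the threshold with other size factors, without the count filter and without each mock library in turn, and not without the Cd8b1 cluster.

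Ikzf2 lay above every mock library in ligated NK-like cells, at 20.3 CPM against 13.2 to 17.4 CPM in mock libraries. It lay below every mock library in ligated T-like cells, at 124 CPM against 149.9 to 203 CPM in mock libraries, and in ligated ILC2-like cells, at 127 CPM against 175 to 209.8 CPM in mock libraries. The NK-like value did not hold in cells classed by marker UMIs, at 3.89 CPM against 7.28 to 22.3 CPM in mock libraries, and the share of NK-like cells with an Ikzf2 UMI overlapped, at 5.46% against 4.49 to 6.93% in mock libraries. The difference between NK-like and the other classes was not tested. Groups of 3 mock libraries are too small for a test of single outlying samples.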

How the results depend on the processing

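No paired analysis was possible because the ligated group has 1 library and shares fewer than 2 replicate numbers with the mock group. Tcf7 was below 0 in all settings run, 15 in T-like, 12 in NK-like and 14 in Itgae/Tmem176b cells, with values from -1.46 to -0.81, -1.01 to -0.58 and -2.09 to -1.11. It was past the threshold in 2, 2 and 2 of them.

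Counts of genes that passed (1, 0, 0 and 5 in T-like, NK-like, Itgae/Tmem176b and ILC2-like cells) changed with DESeq2 to 27 in T-like cells, 7 in NK-like cells, 19 in Itgae/Tmem176b cells and 2 in ILC2-like cells, without the filter on low counts to 152 in T-like cells, 8 in NK-like cells, 4 in Itgae/Tmem176b cells and 227 in ILC2-like cells. They changed with the version term to 336 in T-like cells, 301 in NK-like cells, 1093 in Itgae/Tmem176b cells and 0 in ILC2-like cells, with Scrublet's own threshold to 0 in T-like cells. They changed with cells classed by marker UMIs to 0 in T-like cells, with mock 2 and 3 summed to 2 in T-like cells and 9 in ILC2-like cells, in the Trgv2 cluster alone to 0 in T-like cells, in the Cd40lg cluster alone to 4 in T-like cells, with sub-clusters at resolution 2.0 to 3 in ILC2-like cells. Leaving out 1 mock library each gave 0 to 3530, 0 to 2707, 0 to 6413 and 0 to 63 in the 4 classes, and 48 to 196 for the class by surgery test. Clusters alone, leaving out the Cd8b1 cluster and summed libraries were alternatives chosen after seeing the data.

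Log2 fold changes turned sign as follows, and the cause was not tested. With the version term, values turned to 0.49 for Tbx21 in T-like cells, -0.22 for Eomes in T-like cells, 0.91 for Tox in T-like cells, 0.47 for Lef1 in NK-like cells, 0.31 for Tbx21 in NK-like cells, 0.45 for Tox in NK-like cells, 0.20 for Tbx21 in Itgae/Tmem176b cells, 0.061 for Tox in Itgae/Tmem176b cells and 0.35 for Ikzf2 in Itgae/Tmem176b cells. With cells classed by marker UMIs, values turned to 0.21 for Tbx21 in T-like cells, -0.15 for Zfp683 in T-like cells, 0.043 for Lef1 in NK-like cells, 0.13 for Gata3 in NK-like cells, -1.64 for Ikzf2 in NK-like cells and 0.15 for Eomes in Itgae/Tmem176b cells. With mock 2 and 3 summed, values turned to 0.015 for Tbx21 in T-like cells and 0.042 for Ikzf2 in Itgae/Tmem176b cells. In the Cd40lg cluster alone, values turned to 0.0097 for Tbx21 in T-like cells and 0.64 for Ikzf2 in T-like cells. In the Trgv2 cluster alone, values turned to -0.039 for Zfp683 in T-like cells. In the Tmem176b subset alone, values turned to 0.46 for Eomes in Itgae/Tmem176b cells. In the Itgae subset alone, values turned to 0.0073 for Gata3 in Itgae/Tmem176b cells and 0.23 for Ikzf2 in Itgae/Tmem176b cells. With Scrublet's own threshold, values turned to 0.0078 for Ikzf2 in Itgae/Tmem176b cells. Without the Cd8b1 cluster, values turned to 0.20 for Zfp683 (difference between classes). Ranges on leaving out 1 mock library crossed 0 for Tbx21 in T-like cells (-0.28 to 0.10), Zfp683 in T-like cells (-0.065 to 0.26), Eomes in NK-like cells (-0.35 to 0.14), Gata3 in NK-like cells (-0.12 to 0.14), Eomes in Itgae/Tmem176b cells (-0.19 to 0.17), Gata3 in Itgae/Tmem176b cells (-0.16 to 0.14), Zfp683 in Itgae/Tmem176b cells (-0.031 to 0.26), Ikzf2 in Itgae/Tmem176b cells (-0.19 to 0.25), Foxp3 (difference between classes) (-1.71 to 0.29) and Zfp683 (difference between classes) (-0.14 to 0.065).

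Of levels per class and library, 118 moved by no more than the standard deviation of the mock libraries when cells were classed by marker UMIs, and 26 by more. Of shares of cells, compared after thinning to 1500 or 3000 UMIs, 86 moved by no more than that standard deviation and 202 by more. Thinning removes UMIs and so lowers shares by design, and the count of shares does not measure dependence on filters or classing.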
